A study of Mus musculus with 6 samples.

Results

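Genes of apoptosis and of NF-kB signalling were examined in stem cell-enriched bone marrow cells. The set was defined by gene name and takes in the BCL2 family and BNIP proteins, the caspases, the inhibitor of apoptosis proteins, the TRAF adaptors, the NF-kB subunits with their inhibitors and kinases, and the TNFAIP genes. It holds 39 of the 10366 genes that carry a probe set with a single symbol, on 42 of 14610 tested probe sets, and the probe set with the highest mean over the 6 arrays stands for each gene. Several central genes of both pathways have no probe set of their own in the table used here and were not analysed, among them Bcl2, Mcl1, Bax, Casp9, Nfkb1, Relb and Tnfaip3, and 3 probe sets shared by the Bcl2a1 genes were left out because they name several genes.

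The arrays labelled Zeb2-KO come from Zeb2 fl/fl mice with Mx1-Cre (genotype Zeb2Δ/ΔMx1-Cre), and the WT arrays from C57Bl/6 mice, for which the labels name no Cre. Mx1-Cre is driven by an interferon-responsive promoter and is therefore not limited to blood cells. Mice of both groups received the interferon inducer pIC at 6 weeks and were sampled 8 weeks later, at 14 weeks of age, when LKS-Slam cells, a surface phenotype that enriches hematopoietic stem cells, were sorted from each bone marrow sample. There were 3 arrays in each group, 1 per sample, which the labels call biological replicates.

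Apoptosis runs along a mitochondrial route, in which BCL2-family proteins hold back or open the pores formed by BAX and BAK, and a death receptor route, in which adaptors recruit Casp8. Both end in executioner caspases, which the inhibitor of apoptosis proteins restrain. NF-kB dimers are kept in the cytoplasm by IkB proteins until receptor signals, relayed by TRAF adaptors and IKK kinases, release them. The genes they then switch on include several of their own subunits and inhibitors. In hematopoietic stem cells both pathways are known for setting survival under stress and inflammation.

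Because NF-kB regulates its own components, the RefSeq promoter windows of the set (GRCm38.p6, 250 bases before to 50 after each annotated start) were searched on both strands for the kappa B consensus of 10 bases. Of the 35 genes with a window, 9 (25.7%) held a match, against 5.14% of the 27025 genes in the promoter table. They were Rel, Nfkb2, Bcl3, Nfkbie, Nfkbid, Nfkbia, Bcl2l1, Bnip1 and Casp4, so that 6 of the 9 are NF-kB subunits or IkB-family genes. A match describes the letters in the window and is no measurement of binding. The 4 windows below belong to 2 subunit genes and 2 inhibitor genes whose expression is described further on. They run 5′ to 3′ along the gene, with the matched bases in capitals, and overlapping matches on the 2 strands are merged into 1 run.
Rel (chr11:23770920-23771219, minus strand): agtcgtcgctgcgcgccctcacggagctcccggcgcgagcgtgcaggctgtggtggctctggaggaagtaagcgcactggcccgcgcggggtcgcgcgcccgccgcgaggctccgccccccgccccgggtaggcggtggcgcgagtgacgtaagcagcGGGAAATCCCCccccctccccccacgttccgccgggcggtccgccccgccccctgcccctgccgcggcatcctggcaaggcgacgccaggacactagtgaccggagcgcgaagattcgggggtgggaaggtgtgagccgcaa
Nfkb2 (chr19:46304487-46304786, plus strand): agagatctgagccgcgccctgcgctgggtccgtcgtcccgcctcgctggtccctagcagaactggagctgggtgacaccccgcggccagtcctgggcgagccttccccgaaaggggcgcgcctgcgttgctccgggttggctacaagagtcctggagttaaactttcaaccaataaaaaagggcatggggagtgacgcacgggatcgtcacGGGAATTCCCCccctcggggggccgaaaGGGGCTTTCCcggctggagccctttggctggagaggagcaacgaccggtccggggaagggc
Nfkbie (chr17:45555450-45555749, plus strand): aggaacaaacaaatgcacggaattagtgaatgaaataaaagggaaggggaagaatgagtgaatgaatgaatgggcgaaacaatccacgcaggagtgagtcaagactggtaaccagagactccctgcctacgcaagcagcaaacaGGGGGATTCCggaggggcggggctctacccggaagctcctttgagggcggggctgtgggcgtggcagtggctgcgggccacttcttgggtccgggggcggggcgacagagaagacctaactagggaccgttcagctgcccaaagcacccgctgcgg
Nfkbia (chr12:55492598-55492897, minus strand): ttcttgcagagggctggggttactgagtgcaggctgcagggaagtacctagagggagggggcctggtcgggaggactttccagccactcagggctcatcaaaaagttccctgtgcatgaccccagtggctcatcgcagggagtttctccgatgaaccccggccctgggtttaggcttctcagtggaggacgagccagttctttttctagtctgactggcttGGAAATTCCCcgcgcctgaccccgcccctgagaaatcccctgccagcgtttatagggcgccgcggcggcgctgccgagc
The Rel window holds 3 overlapping matches, the Nfkb2 window 4 matches in 2 runs, and the Nfkbie and Nfkbia windows 1 match each. Nfkb2 has 3 windows in the table, for different annotated starts, and each of them holds at least 1 match.

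None of the 39 genes passed limma's adjusted p of 0.05 over all tested probe sets, where 2 of 14610 (0.0137%) passed. At an unadjusted p under 0.05 there were 2, the NF-kB subunit gene Rel, which lay lower in the arrays labelled Zeb2-KO, and the TNF-induced gene Tnfaip2, which lay higher. These 2 are 5.13% of the set, against 7.02% of all probe sets, and 1 gene in each direction (2.56%) stands against 1.33% lower and 5.69% higher. The smallest adjusted p in the set was 0.662. Differences ran from -0.83 to 0.79 on the log2 scale, with a median of -0.04 against -0.09 over all probe sets, and 18 of 39 lay above 0 (46.2%, against 44.6%) and 21 below (53.8%, against 55.4%). Complete separation of the 3 and 3 values was seen for 7 genes (17.9%, against 13.2%). In 5 of them, Rel, Birc3, Birc7, Nfkbie and Bcl2l10, the arrays labelled Zeb2-KO were lower (12.8%, against 6.26% over all probe sets). In 2, Tnfaip2 and Nfkbib, they were higher (5.13%, against 6.9%).

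**Figure D1:**
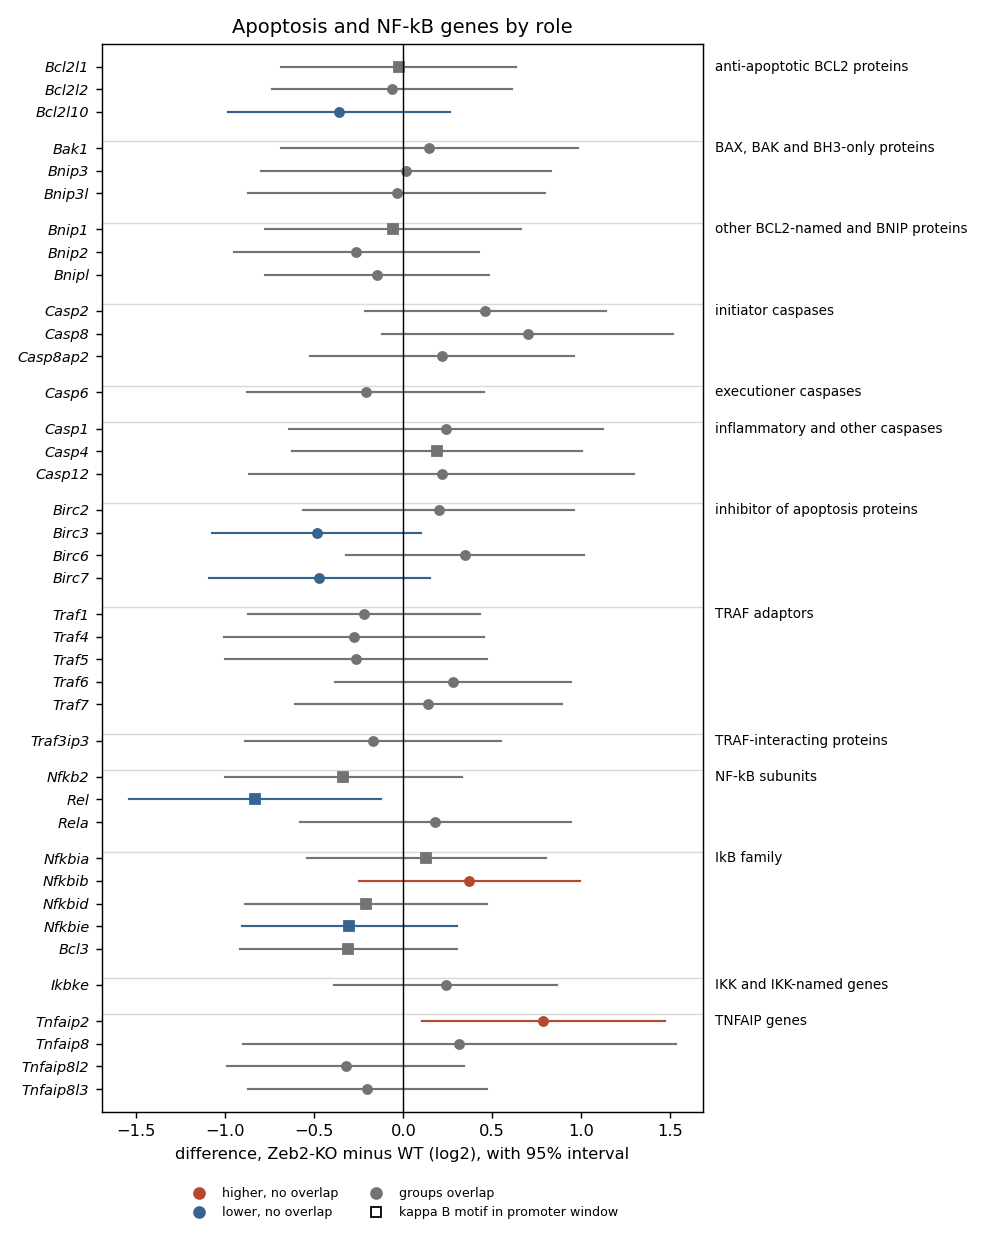
Difference of mean log2 intensity, Zeb2-KO minus WT, for the 39 genes grouped by role (horizontal axis, log2), with limma's 95% interval as a line. Colour marks whether the 3 values of each group overlap, and squares mark the 9 genes with a kappa B match in a promoter window. The intervals of Rel and Tnfaip2 alone leave out 0. Casp8ap2, which is no caspase, is drawn with the initiator caspases.

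Several facts of the arrays bear on these values. Zeb2 itself, on 1 probe set, lay higher in arrays carrying the Zeb2-KO label (8.63 ± 0.73 against 7.14 ± 0.49, SD, n = 3), so every direction here rests on the labels. The labels used here do not say whether that probe set lies in the deleted part. The spread of each array, its interquartile range on the log2 scale, averaged 2.11 ± 0.28 for Zeb2-KO and 1.79 ± 0.22 for WT (SD, n = 3), and bright probe sets tended to lie higher and dim ones lower. WT replicate 1 correlated least with the other arrays (mean correlation 0.841, against 0.886 to 0.908). Of the 12 measured genes of the stem cell gate and identity, 5 lay above 0 and 7 below (median -0.25). Slamf1, a SLAM antigen, stood at 8.31, 9.01 and 8.30 in the arrays labelled Zeb2-KO, against 5.76, 8.02 and 7.94 in WT, and Kit lay higher without overlap too, with WT replicate 1 the lowest array for both. Cd48, an antigen that SLAM gates commonly select against, lay lower without overlap (-1.02), as did the stem cell genes Procr (-0.45) and Hoxb4 (-0.38). Mllt3 (0.86) and Gata2 (0.35), of the same list, lay higher without overlap. Among markers of other cells, megakaryocyte and platelet genes lay higher in the arrays labelled Zeb2-KO (7 of 8) and B cell genes lower (13 of 13). In sorted cell pools, fewer cells of a type and less RNA per cell cannot be told apart.

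The tilt with brightness was shared by the set. Among the 25 members at or above the median mean of all tested probe sets (6.63), the median difference was 0.15 and 15 lay above 0 (60.0%), against 0.18 and 63.5% of all such probe sets. Among the 14 dimmer members the median was -0.21 and 11 lay below 0 (78.6%), against -0.23 and 74.3%. The members' overall split between higher and lower therefore lay close to that of probe sets of like brightness. The 10 bright members on the lower side included Rel, Birc3, Nfkb2 and Tnfaip8l2. The 3 dim members on the higher side were Nfkbib, Traf6 and Bnip3, and separation upward, as in Nfkbib, was seen in 3.35% of dim probe sets.

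**Figure D2:**
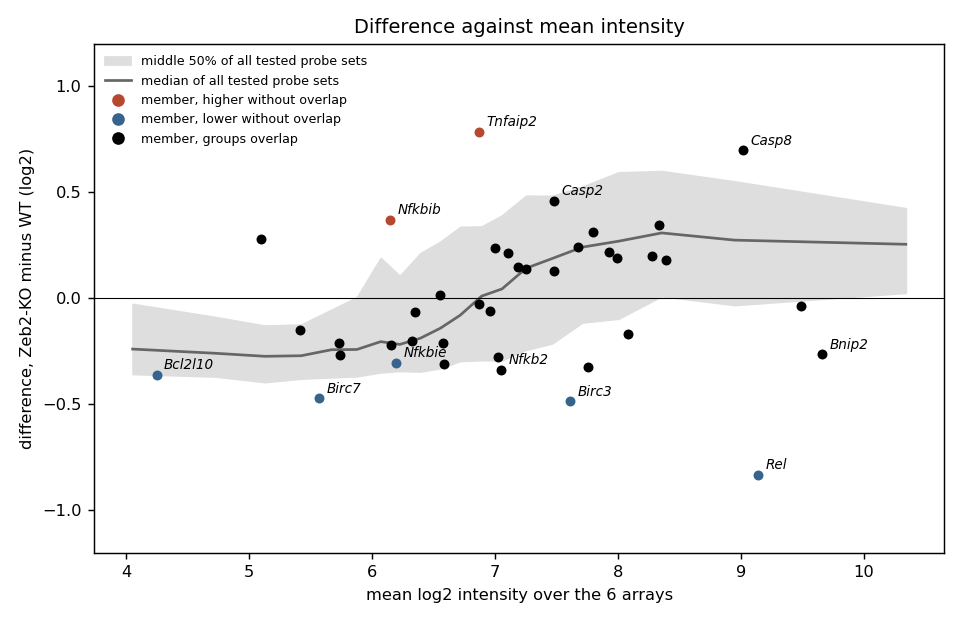
Difference, Zeb2-KO minus WT (log2), against the mean log2 intensity over the 6 arrays. Points are the 39 genes, the line is the median and the band the middle 50% of all tested probe sets in 20 bins of brightness. Members below the band include Rel at -0.83, Birc3 at -0.49, Tnfaip8l2 at -0.32 and Bnip2 at -0.26. Those above it include Tnfaip2 at 0.79, Casp8 at 0.70, Nfkbib at 0.37 and Traf6 at 0.28.

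Of the 5 genes of NF-kB subunits, 3 were measured. Rel encodes c-Rel, a subunit best known from lymphocyte activation. It stood at log2 intensities of 8.95, 8.19 and 9.03 in the arrays labelled Zeb2-KO, against 9.31, 9.54 and 9.81 in WT. Every Zeb2-KO value lay below every WT value, and Zeb2-KO replicate 2 was the lowest. The difference was -0.83 (SE 0.32, 0.56-fold, 95% interval -1.54 to -0.12), with an unadjusted p of 0.0254 and an adjusted p of 0.662 in limma. Among probe sets as bright as the median or brighter, 1.62% lay lower at that unadjusted threshold and 3.52% lay lower without overlap. Of 16 alternative analyses, 6 leave the Rel difference as it is by construction, and in the 10 that can move it, it stayed below 0, from -1.03 with quantile normalization to -0.56 without Zeb2-KO replicate 2. The unadjusted p was 0.114 when Zeb2-KO replicate 2 was left out and 0.0924 when WT replicate 3 was (-0.70). Adjusting for array spread gave 0.127 (-0.61).

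B cell markers, in a lineage known for high Rel, moved the same way. The mean of the 13 markers was 7.01, 6.29 and 6.81 in the arrays labelled Zeb2-KO, against 7.88, 7.07 and 7.53 in WT. Zeb2-KO replicate 2 was lowest for both Rel and the markers, while in WT the marker mean was highest in replicate 1 and Rel in replicate 3. The defining marker Cd79a was measured at 5.76 to 6.90 in the arrays labelled Zeb2-KO and at 6.74 to 7.17 in WT. The part of B cell RNA in the Rel difference was not tested.

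Nfkb2, the precursor of the alternative NF-kB pathway, stood at 7.21, 6.69 and 6.74 in the arrays labelled Zeb2-KO, against 7.33, 6.85 and 7.47 in WT. The groups overlapped, and the difference was -0.34 (SE 0.30, adjusted p = 0.674). After adjusting for array spread it was -0.01. Rela, the main activating subunit of the classical pathway, stood at 9.07, 8.05 and 8.33 against 8.19, 8.00 and 8.71 in WT. These values overlapped throughout, with a difference of 0.18 (SE 0.35, 95% interval -0.58 to 0.94) that was -0.04 with quantile normalization. The difference between Rel and Rela was not tested.

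**Figure D3:**
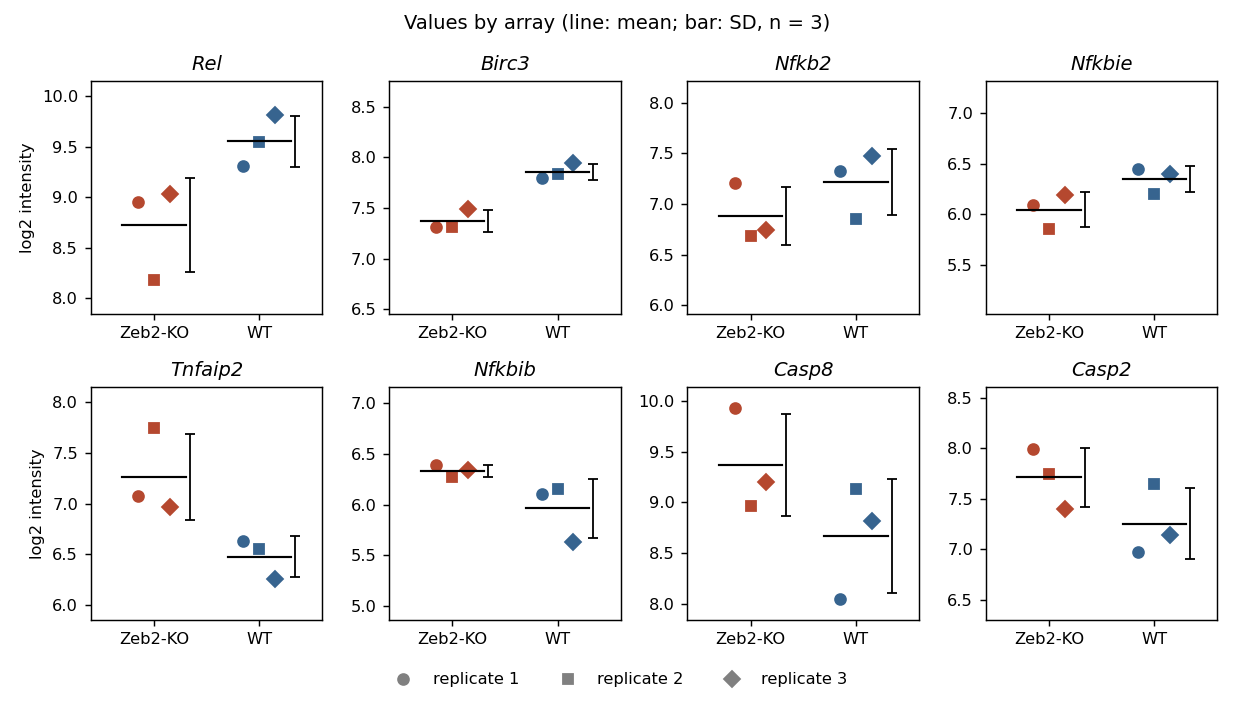
Log2 intensity (vertical axis, the same span in each panel) in each array for 8 genes, Zeb2-KO left and WT right. Symbols mark the replicate numbers, lines the means and bars the SD of 3 arrays. Rel, Birc3 and Nfkbie are lower and Tnfaip2 and Nfkbib higher in the arrays labelled Zeb2-KO without overlap, whereas Nfkb2, Casp8 and Casp2 overlap.

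Of the IkB family, which holds NF-kB inactive or modifies it in the nucleus, 5 of 7 listed genes were measured. Nfkbie, the gene of IkB epsilon, stood at 6.09, 5.86 and 6.20 in the arrays labelled Zeb2-KO, against 6.45, 6.20 and 6.40 in WT. The groups touched but did not overlap, and the difference was -0.30 (SE 0.27, adjusted p = 0.674). With a mean of 6.20, Nfkbie is a dim member, and 9.01% of dim probe sets lay lower without overlap. In its bin of brightness the median difference was -0.22 and the lower quartile -0.34. Nfkbib, the gene of IkB beta, went the other way without overlap, at 6.39, 6.27 and 6.34 against 6.10, 6.15 and 5.63 in WT, a difference of 0.37 (SE 0.28, adjusted p = 0.673). WT replicate 3 was the low array here, and without it the difference was 0.21. Neither gene met the unadjusted threshold.

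Nfkbia, the gene of IkB alpha and a rapid NF-kB target, stood at 7.27, 7.58 and 7.77 in the arrays labelled Zeb2-KO, against 7.53, 7.71 and 7.0 in WT. These values overlapped, with a difference of 0.13 (SE 0.30, 95% interval -0.54 to 0.80). The nuclear members Bcl3 and Nfkbid lay at -0.31 and -0.21, both with overlap. Of the 10 alternative analyses that can move a difference, Bcl3 kept its sign in 10 and Nfkbid in 9.

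The 9 genes with a kappa B match had a median difference of -0.21 with 7 below 0, while the 26 without one had a median of 0.14 with 11 below 0. The 7 were Rel, Nfkb2, Bcl3, Nfkbie, Nfkbid, Bnip1 and Bcl2l1, and the other 2 were Nfkbia and Casp4. Bnip1 and Bcl2l1, at -0.06 and -0.03, lay close to 0. Genes without a match include the known NF-kB targets Birc3 and Traf1, so the split does not part targets from other genes. Of the 9, 6 are at or above the median mean. The medians drew together in some settings, to -0.06 with a match against 0.11 without one after adjusting for array spread. The median without a match was itself below 0 with quantile normalization (-0.03, against -0.19 with a match, where 9 of 9 lay below 0), with array weights (-0.0095) and when WT replicate 2 was left out (-0.016). When Zeb2-KO replicate 2 was left out the medians were -0.064 and -0.0019. Leaving out Zeb2-KO replicate 3 left 5 of the 9 below 0, as did leaving out WT replicate 2. No test was made of this grouping, which was drawn up with the values known.

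The kinase gene Ikbke, whose product is induced by cytokines and also serves interferon signalling, was the 1 measured gene of 5 listed under the IKK name. It stood at 7.17, 6.92 and 7.26 in the arrays labelled Zeb2-KO, against 7.12, 6.92 and 6.60 in WT. Only WT replicate 3 stood apart, and the difference of 0.24 (SE 0.28) was 0.10 without it.

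Among the TRAF adaptors, which link receptors of the TNF and Toll-like families to NF-kB, 5 of 7 genes were measured and all 5 overlapped between groups. Traf1, itself an NF-kB target, Traf4 and Traf5 lay at -0.22, -0.28 and -0.27. Traf6, the ubiquitin ligase of Toll-like receptor signalling, stood at 4.85, 5.36 and 5.51 in the arrays labelled Zeb2-KO, against 5.23, 4.76 and 4.89 in WT, a difference of 0.28 (SE 0.30, adjusted p = 0.683). Traf7 lay at 0.14. Traf3ip3, a TRAF partner of immune cells, lay at -0.17. No TRAF gene reached an unadjusted p below 0.372.

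Tnfaip2, first known as a TNF-induced gene of endothelium and later for its part in membrane nanotubes, had the largest positive difference of the set. It stood at 7.07, 7.75 and 6.97 in the arrays labelled Zeb2-KO, against 6.63, 6.55 and 6.25 in WT. All Zeb2-KO values lay above all WT values, with Zeb2-KO replicate 2 the highest. The difference was 0.79 (SE 0.31, 1.73-fold, 95% interval 0.11 to 1.47), with an unadjusted p of 0.0275 and an adjusted p of 0.662. It stayed above 0 in the 10 alternative analyses that can move it, with 0.54 as the lowest value (Zeb2-KO replicate 2 left out) and 0.93 as the highest (Zeb2-KO replicate 3 left out). The unadjusted p was 0.119 when Zeb2-KO replicate 2 was left out, 0.100 when WT replicate 3 was, and 0.120 after adjusting for array spread (0.56). Bright probe sets lay higher at that threshold in 8.69% of cases and higher without overlap in 10.4%, so a gene such as Tnfaip2 was not rare on this side. Stromal and endothelial markers, most of them matrix genes, lay lower in 6 of 6 cases, with the endothelial marker Pecam1 at -0.21 with overlap. The part of such cells in the Tnfaip2 difference was not tested.

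The other TNFAIP genes overlapped between groups. Tnfaip8, an inhibitor of apoptosis induced by TNF, stood at 7.64, 8.07 and 8.16 in the arrays labelled Zeb2-KO, against 6.09, 8.61 and 8.22 in WT. WT replicate 1 alone was low on this probe set, and the difference of 0.31 became -0.46 without it. A dimmer probe set of Tnfaip8 lay at 0.15 with overlap, and there WT replicate 3 was the lowest array (5.39). The relatives of Tnfaip8, Tnfaip8l2, a brake on immune activation, and Tnfaip8l3, lay at -0.32 and -0.20.

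Genes with Casp in their symbol, which are the caspases and Casp8ap2, a partner of Casp8 and no caspase, lay mostly on the higher side. Not a single gene passed the unadjusted threshold. Of the 7 measured, 6 lay above 0, with a median of 0.22, and 6 of the 7 are at or above the median mean, where the median of all probe sets was 0.18. Casp8, the initiator of the death receptor route, stood at 9.93, 8.97 and 9.20 in the arrays labelled Zeb2-KO, against 8.05, 9.14 and 8.82 in WT. Zeb2-KO replicate 1 was the highest and WT replicate 1 the lowest array, and the others overlapped. The difference was 0.70 (SE 0.37, 1.62-fold, unadjusted p = 0.0874, adjusted p = 0.673). Leaving out Zeb2-KO replicate 1 gave 0.42, leaving out WT replicate 1 gave 0.39, and leaving out WT replicate 2 gave 0.93, where the unadjusted p was 0.0414.

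Casp2, an initiator linked to genotoxic stress, stood at 7.99, 7.74 and 7.41 in the arrays labelled Zeb2-KO, against 6.97, 7.65 and 7.14 in WT. Zeb2-KO replicate 3 lay below WT replicate 2, and the difference was 0.46 (SE 0.31, adjusted p = 0.673). Casp8ap2, named for binding Casp8 and known for histone transcript processing, lay at 0.22 (-0.04 without WT replicate 1). The inflammatory genes Casp1 and Casp4, which cut cytokine precursors and gasdermin, lay at 0.24 and 0.19, and Casp12 at 0.22. All 3 were most intense in Zeb2-KO replicate 2, at 8.67, 8.57 and 8.00. Without that array the median of the 7 genes was -0.05 with 4 below 0, and after adjusting for array spread it was -0.06. The executioner Casp6 lay at -0.21 (SE 0.30).

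**Figure D4:**
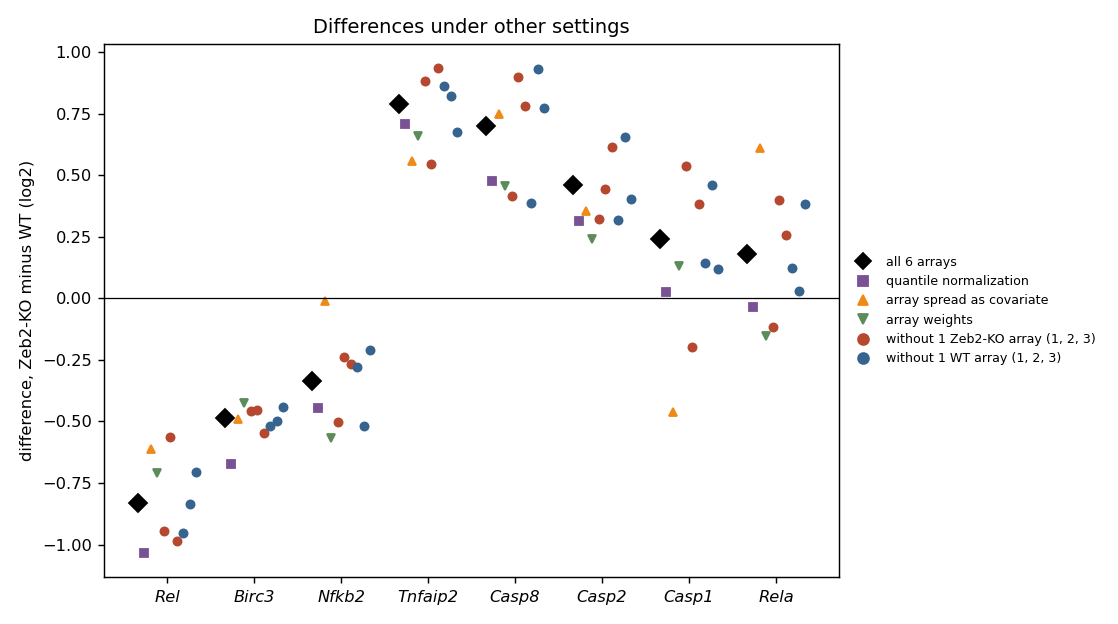
Difference, Zeb2-KO minus WT (log2), for 8 genes with all 6 arrays, with quantile normalization, after adjusting for array spread, with array weights and with each array left out. Rel, Birc3, Nfkb2, Tnfaip2, Casp8 and Casp2 keep their side of 0 in the settings drawn, whereas Casp1 and Rela do not.

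The 4 genes of inhibitor of apoptosis proteins split evenly. Birc3, the ubiquitin ligase that binds TRAF adaptors and a known NF-kB target, stood at 7.31, 7.31 and 7.49 in the arrays labelled Zeb2-KO, against 7.79, 7.83 and 7.94 in WT. The groups were tight and did not overlap, with SDs of 0.11 and 0.08. The difference was -0.49 (SE 0.27, 0.71-fold), with an unadjusted p of 0.0953 and an adjusted p of 0.673 in limma, which draws a small spread towards that of all probe sets. It stayed between -0.67 and -0.43 in the 10 alternative analyses that can move it. The unadjusted p in limma was 0.0172 with quantile normalization and 0.0373 with array weights, a setting in which 978 of all probe sets passed the adjusted threshold. After adjusting for array spread it was 0.0574. Without Zeb2-KO replicate 1, 2 or 3 it was 0.139, 0.175 and 0.1615. Its close relative Birc2 lay at 0.20, with 8.12, 8.76 and 8.25 in the arrays labelled Zeb2-KO, against 8.50, 8.48 and 7.55 in WT. WT replicate 3 was the low array for Birc2, and without it the difference was -0.12.

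Birc6, a giant ubiquitin-conjugating inhibitor, lay at 0.35 with overlap and kept its sign in the 10 alternative analyses that can move it. Birc7 lay at -0.47 without overlap, at 5.62, 5.20 and 5.19 against 5.97, 5.75 and 5.69 in WT. Its mean was below the median of all probe sets, where 9.01% lay lower without overlap. The unadjusted p of Birc7 was 0.122.

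Of the BCL2 family proper, 4 genes were measured, and none met the unadjusted threshold. Bcl2l1, which encodes the survival protein BCL-XL, stood at 6.97, 6.92 and 6.67 in the arrays labelled Zeb2-KO, against 7.19, 7.0 and 6.45 in WT. Its difference was -0.03 (SE 0.30), and the 95% interval of -0.69 to 0.64 leaves room for changes of either sign. Bcl2l2, a related survival gene, lay at -0.06. Bcl2l10, at 4.19, 3.78 and 4.24 against 4.61, 4.39 and 4.29 in WT, lay at -0.36 without overlap and is one of the dim members. Bak1, a pore former of the mitochondrial route, stood at 6.87, 7.80 and 7.12 in the arrays labelled Zeb2-KO, against 6.43, 7.33 and 7.59 in WT. It overlapped throughout, with a difference of 0.15 (SE 0.38) that was -0.41 after adjusting for array spread.

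The mitophagy receptors Bnip3 and Bnip3l, the second of which clears mitochondria from maturing red cells, lay at 0.02 and -0.04. Each has 2 probe sets, and by identifier order 1 of each lies among probe sets of another chromosome than its gene, so these may also read a near-identical copy. For Bnip3l that is the probe set used here, with neighbours on chromosome 12 for a gene on chromosome 14, and the other one lay at -0.01. For Bnip3 it is the one not used, which lay at 0.22. Erythroid markers lay higher in 6 of 6 cases in the arrays labelled Zeb2-KO, beside these values near 0. Bnip2, at 9.01, 9.83 and 9.75 against 9.96, 9.83 and 9.60 in WT, lay at -0.26, and Bnip1 and Bnipl lay at -0.06 and -0.15, all with overlap.

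Genes of the same pathways outside the set were listed separately. Of 9 measured death receptor genes and adaptors, 5 lay below 0 with a median of -0.07, and none met the unadjusted threshold. Cflar, the gene of the Casp8 inhibitor FLIP, has 2 probe sets that differ in sign. The brighter stood at 7.87, 7.87 and 6.33 in the arrays labelled Zeb2-KO, against 8.45, 8.03 and 7.97 in WT, a difference of -0.79 without overlap that was -0.28 without Zeb2-KO replicate 3. Its named neighbours by identifier lie mostly on chromosome 3 (42 of 48), while the gene is on chromosome 1, so it may also read another locus. The other, among neighbours on chromosome 1 (44 of 47), overlapped and lay at 0.24 (SE 0.43, unadjusted p = 0.595), so no direction is given for Cflar. Tnf lay at -0.46. Of 15 apoptosome and mitochondrial genes, 11 lay above 0 (73.3%, against 44.6% of all probe sets and 63.5% of bright ones) with a median of 0.34, and 14 of the 15 are at or above the median mean. Htra2, a mitochondrial protease, lay at 0.63 without overlap (unadjusted p = 0.0508) and Bcap31 at 0.77. After adjusting for array spread the median of these 15 genes was -0.13.

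Of 23 measured genes of NF-kB signalling outside the set, 14 lay above 0 (60.9%, against 44.6% of all probe sets and 63.5% of bright ones), with a median of 0.05. Of these 23 genes, 14 are at or above the median mean. At the unadjusted threshold 1 was higher, Tab2 (4.35%, against 5.69%). Tab2, an adaptor of the kinase that activates IKK, lay at 1.08 (adjusted p = 0.673), and Ube2n, the conjugating enzyme that works with Traf6, at 1.52. Both were low in WT replicate 1, at 6.63 and 4.74, and lay at 0.51 and 0.59 without it. Of 24 measured NF-kB target genes outside the set, 18 lay below 0 (75%, against 55.4%) with a median of -0.20, and 1 was lower at the unadjusted threshold (4.17%, against 1.33%). That was Cd83, a surface antigen of activated lymphoid and dendritic cells, at 7.51, 6.93 and 6.71 against 8.83, 7.25 and 8.09 in WT, a difference of -1.005 (-0.62 without WT replicate 1). Cxcl2, a neutrophil chemokine, lay at -0.68. Of the 24, 14 are at or above the median mean, and after adjusting for array spread 15 lay below 0 with a median of -0.06. Markers of monocytes and dendritic cells lay lower in 10 of 11 cases (90.9%, against 55.4% of all probe sets), with Lyz2 at 0.40 on the other side. Of these 11 markers, 6 are at or above the median mean. B cell markers lay lower in 13 of 13 cases. The part of any of these cell types in the target genes was not tested. None of these genes passed the adjusted threshold, with 0.673 as the smallest adjusted p.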

How the data were processed

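RNA from sorted LKS-Slam cells was amplified and run with a biotin label on 6 mouse arrays, per the labels' protocols. Values are deposited as an intensity for each probe set on every array, and RMA is named per the submitters' processing notes, with its version and any later scaling not given in the sources used here. Values lie on a linear scale, so log2 was taken. Of 20220 probe sets, 5610 with identifiers below the first annotated one were left out as controls and 14610 were tested with limma 3.58.1 (lmFit, eBayes, no trend, not robust, R 4.3.3) with Benjamini-Hochberg adjustment over all of them at 0.05. Differences are Zeb2-KO minus WT with limma's SE and 95% interval. Arrays carry no read depth, and 3 arrays per group limit the precision. Genes come from the platform annotation (11229 probe sets with 1 symbol, 766 with several, 2615 with none), and 11184 of the single-symbol probe sets were found in the RefSeq table (GRCm38.p6). RefSeq promoter windows matched 35 of 39 genes.

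The members and lists were chosen with earlier results of these data known. Named with values are members at an unadjusted p under 0.05, the 8 largest rises and falls at or above the median mean, 9 measured of 20 fixed genes, and the 2 genes of smallest p in each pathway list. Other members without overlap or completing a role were named after their values were seen. The steps were tested on simulated data. Alternatives were quantile normalization, centring, a filter on dim probe sets (below the 0.25 quantile of means), trended and robust priors, a replicate block, array spread (interquartile range) as a model term, array weights, the control probe sets included, the mean of a gene's probe sets, and each array left out. The labels do not say that replicate numbers pair arrays.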

Additional observations from a re-analysis of the deposited data

How the results depend on the processing

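The set has 0 genes past the adjusted threshold in the main analysis and in each of 16 alternatives. Over all probe sets 2 passed, against 0 with the replicate block, 1 after adjusting for array spread and 978 with array weights, and between 2 and 18 with 1 array left out. The median difference of the 39 genes was 0.015 with dim probe sets left out, 0.022 after adjusting for array spread and -0.14 with array weights, and ran from -0.12 to 0.012 with 1 array left out. Genes at an unadjusted p under 0.05 numbered 2 in the main analysis, 3 with quantile normalization, 4 with the replicate block, 13 with array weights, and 0 after adjusting for array spread and when either Zeb2-KO replicate 2 or WT replicate 3 was left out.

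Of the 22 genes named by rule, 9 kept their sign in every alternative, of which 6 leave the difference of a gene with 1 probe set as it is by construction. With quantile normalization the sign turned for Birc2 (-0.039), Rela (-0.037) and Nfkbia (-0.055). After adjusting for array spread it turned for Tnfaip8 (-0.49), Casp1 (-0.46), Bak1 (-0.41), Birc2 (-0.052), Nfkbia (-0.043), Tnfaip8l2 (0.038), Traf4 (0.18), Traf3ip3 (0.20) and Bcl2l1 (0.022). With array weights it turned for Casp8ap2 (-0.31), Bak1 (-0.20), Rela (-0.15), Bnip2 (0.021) and Bcl2l1 (0.028). With 1 array left out, sign changes gave ranges of -0.12 to 0.40 for Rela, -0.20 to 0.54 for Casp1, -0.34 to 0.10 for Traf3ip3, -0.20 to 0.39 for Bak1, -0.31 to 0.11 for Bnip1, -0.24 to 0.13 for Bcl2l1, -0.46 to 0.80 for Tnfaip8, -0.044 to 0.49 for Casp8ap2, -0.12 to 0.36 for Birc2 and -0.076 to 0.28 for Nfkbia. The cause was not tested.

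Same-numbered arrays of the groups had correlations of their deviations of 0.36, 0.41 and 0.05 for numbers 1 to 3. Each array correlated best with its own number, a hint from the data and not from the design. For number 3 the margin was small, with 0.03 between Zeb2-KO replicate 3 and WT replicate 2. In this balanced design the block leaves each difference as it is and alters only its error, and Birc3 then had an unadjusted p of 0.0240 (adjusted p = 0.277, limma). The 3 arrays per group limit the precision. The mean of all probe sets of a gene was fitted over 10366 genes and gives no count over probe sets. Traf6 has no value with dim probe sets left out.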
